A study of Mus musculus with 20 samples.

Results

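The step from 72 h to 96 h after estradiol withdrawal was examined in ER-Hoxa9-Lys-GFP cells, a mouse myeloid culture of C57BL/6 background, by comparing the ATAC-seq peaks listed at 72 h with those listed at 96 h. A peak of one list was matched to the other list when the intervals overlapped by at least 1 bp, and the 120 h list was used to see whether a difference was still present at the next time. The 72 h list held 46837 peaks and the 96 h list 29806, so that 76643 of the 504887 peaks of the 10 deposited lists belonged to this step, and the 120 h list held 23620. The series comprises 20 samples, 2 at 0 h in estradiol (E2) and 2 each at 4, 8, 12, 24, 36, 48, 72, 96 and 120 h without it, once PBS washes had removed it. All of these cells carry the ER-Hoxa9 fusion and the Lys-GFP reporter and were grown in RPMI with serum and SCF conditioned medium. By their labels the 72 h, 96 h and 120 h groups differ only in the time without E2. The sources used here do not say whether the line is a single clone.

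ATAC-seq inserts sequencing adapters into open DNA with the Tn5 transposase, and a peak marks a stretch where insertions pile up, usually a promoter, an enhancer or another site kept free of nucleosomes. In these cells the fusion of the estrogen receptor with the homeodomain factor Hoxa9 holds progenitors in an immature state while E2 is present, and its loss of ligand lets them mature along the myeloid path, with the green reporter driven from the lysozyme gene. Neutrophil maturation runs in stages: primary granule proteins such as proteinase 3, elastase and myeloperoxidase are made early by promyelocytes, lactoferrin and other secondary granule proteins follow in myelocytes, and receptors for migration and phagocytosis appear late, as the cell stops dividing and its nucleus condenses.

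Each time point has 1 deposited list that serves both of its samples, and the nuclei of a preparation were split into 2 transposition reactions. There is therefore no spread between samples, and no test was made. Intervals are 95% Wilson binomial intervals and cover counting error only. Positions are in mm10, counted from 1, and each peak goes with the nearest gene of the deposited annotation. The lists carry no depth and every peak score in them is 0, so that fewer open sites and less signal in a library cannot be told apart. Of 12 neutrophil marker genes, all 12 had at least 1 peak at 72 h, 96 h and 120 h, and the number with a promoter peak was 7, 10 and 11. Of the 8 lymphoid, 6 erythroid, 5 mast or basophil and 7 non-blood marker genes, 3, 4, 3 and 2 had a peak at 72 h and 2, 3, 2 and 2 at 96 h, and Cd79a, Pax5, Alas2, Fcer1a, Ms4a2, Alb, Myh6 and Krt5 had none at either time. Of the 8 monocyte or macrophage marker genes 7 had a peak at 72 h and 6 at 96 h. Summed over each set, the peaks at 72 h and 96 h numbered 39 and 32 for neutrophil, 22 and 20 for macrophage, 9 and 7 for lymphoid, 10 and 6 for erythroid, 13 and 11 for mast or basophil and 9 and 6 for non-blood markers.

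Between 72 h and 96 h the list lost mainly narrow distal peaks. Of the 46837 peaks at 72 h, 26528 (56.6%, interval 56.2 to 57.1) had a peak over them at 96 h and are called kept. The other 20309 (43.4%) had none. Among these, 18740 (40.0% of the 72 h list) were missing at 120 h as well and are called closed, a word that here says only that no peak was listed. The remaining 1569 were listed again at 120 h and are called returned. In the other direction, 26315 of the 29806 peaks at 96 h (88.3%, interval 87.9 to 88.6) lay over a 72 h peak, and 3491 (11.7%) did not. Of those, 1946 (6.53% of the 96 h list) were listed at 120 h too and are called new, and 1545 were listed neither at 72 h nor at 120 h and are called transient.

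Promoter peaks were kept more often than distal peaks at this step, as they were at both neighbouring steps given below. A promoter peak is one whose deposited distance to the transcription start site (TSS) was at most 1000 bp. Of 10359 promoter peaks at 72 h, 8773 were kept (84.7%, interval 84.0 to 85.4) and 1229 closed (11.9%), whereas of 36478 distal peaks 17755 were kept (48.7%, interval 48.2 to 49.2) and 17511 closed (48.0%). Promoter peaks thus made up 33.1% of the kept peaks and 6.56% of the closed ones. Width went with the outcome. Kept peaks had a median width of 619 bp and closed peaks of 348 bp, and within promoters the medians were 869 bp and 410 bp. Even so, promoters were kept more often in every width bin. In the narrowest bin, under 300 bp, 33.1% of promoter peaks and 20.1% of distal peaks were kept, and from 900 to just under 1100 bp the shares were 94.7% and 79.0%. With both classes weighted to the widths of all 72 h peaks, the shares were 69.7% and 53.0%.

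**Figure D1:**
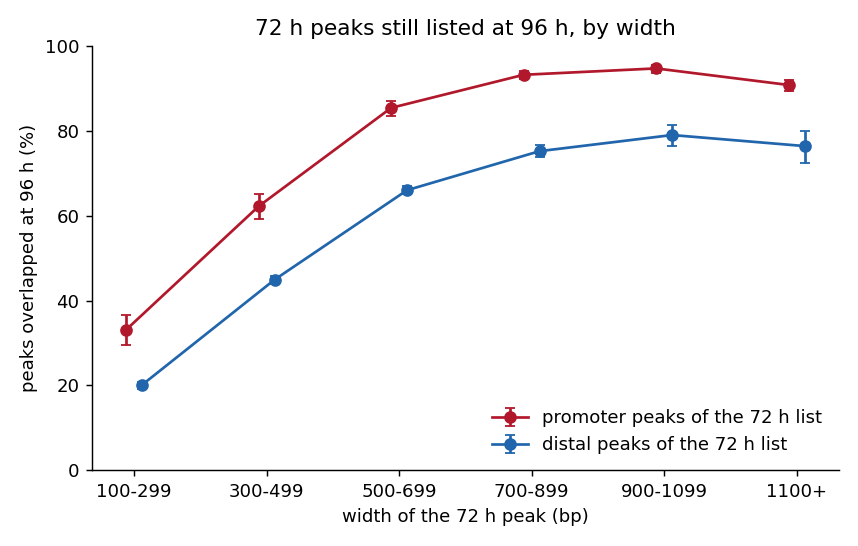
Share of 72 h peaks overlapped by a 96 h peak (vertical axis, percent) in 6 bins of the width of the 72 h peak (horizontal axis, bp), for promoter peaks (red) and distal peaks (blue). Bars are 95% Wilson intervals that cover counting error only. Promoter peaks lie above distal peaks in every bin, from 33.1% against 20.1% in the narrowest to 90.8% against 76.4% in the widest.

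Setting the neighbouring steps beside it, with which it shares a list each, the distal share was lowest here. From 48 h to 72 h, 85.7% of promoter peaks and 66.5% of distal peaks of the earlier list were found in the later one. From 96 h to 120 h the shares were 89.1% and 64.3%. Distal peaks numbered 48434, 36478, 20226 and 14652 at 48, 72, 96 and 120 h. The distal list thus shrank most at this step, and the shares were not matched for list length. The share of the later list without a partner in the earlier one was 11.8% from 48 h to 72 h, 11.7% here and 8.96% from 96 h to 120 h.

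Kept peaks were often narrower at 96 h. Among 17378 distal pairs with a single partner in each list the median width was 526 bp at 72 h and 452 bp at 96 h, and 72.1% of pairs were narrower at 96 h. Among 8314 promoter pairs the medians were 878 bp and 853.5 bp. Later on, 74.7% of the kept peaks were overlapped at 120 h, 90.2% of those at promoters and 67.0% of the distal ones. Only 148 of the 72 h peaks met 2 or more 96 h peaks, and 352 of the 96 h peaks met 2 or more 72 h peaks.

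The list length bears on these counts. The 72 h, 96 h and 120 h lists were each reduced to their 23620 widest peaks. Then 5267 peaks of 72 h were absent at 96 and 120 h, and 4622 peaks of 96 h were absent at 72 h and present at 120 h. Lists of equal length leave similar numbers without a partner on both sides, and a peak below the cut counts as absent. These counts therefore cannot show whether closed peaks exceed new ones among wide peaks. With lists of 29806 peaks, 90.0% of promoter and 63.1% of distal peaks of 72 h were kept.

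The earlier lists show where each class came from. Of the kept peaks, 59.7% were present in all 7 lists from 0 h to 48 h, against 42.5% of the closed peaks, 19.5% of the new peaks and 15.6% of the transient ones. Peaks that had appeared after 8 h, absent at 0, 4 and 8 h, made up 12.9% of the kept, 25.1% of the closed and 30.9% of the new peaks. Closed peaks listed for the first time at 72 h numbered 1030 of 18740 (5.50%). Most new peaks were not new to the time course: 80.2% overlapped a peak of at least 1 earlier list, 96.1% of the 752 at promoters and 70.1% of the 1194 distal ones. The 386 that appeared in no list before 96 h comprised 29 promoter and 357 distal peaks, with a median width of 367.5 bp.

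**Figure D2:**
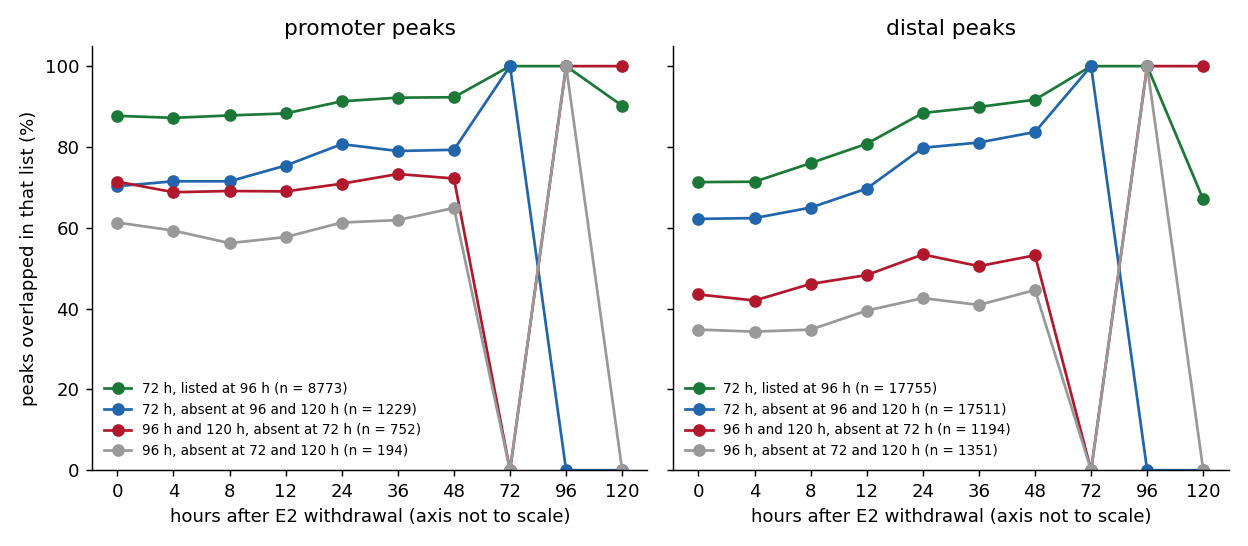
Percent of peaks (vertical axis) of each class overlapped by a peak in each of the 10 lists (horizontal axis, hours after E2 withdrawal, not to scale), for promoter peaks (left) and distal peaks (right). The values of 0 and 100% at 72, 96 and 120 h are set by the definitions. New promoter peaks (red) were overlapped in 68.8 to 73.3% of cases in each list from 0 to 48 h, and new distal peaks in 42.0 to 53.4%.

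Of the 72 h promoter peaks absent at 96 h, 22.5% were listed again at 120 h, and this share was 7.61% for peaks under 300 bp and 50.3% for those of 1100 bp and wider. New promoter peaks had a median width of 925.5 bp at 96 h, against 857 bp for promoter peaks shared with 72 h. The 8 widest new promoters belonged to Hsp90ab1 (chr17:45572453-45574411, 1959 bp), Erf, Kmt2c, B330016D10Rik, Hnrnpul2, Qrich1, Cdyl and Alyref2, and each of them was present in 3 to 7 of the 7 earlier lists. The 8 widest closed promoters, of Galnt7, St7l, Stx4a, Srsf6, Egln1, Nfe2l2, Sfmbt1 and Crtc3, were 1679 to 1874 bp wide and present in 4 to 7 of the 7 earlier lists. Egln1 encodes an oxygen-sensing prolyl hydroxylase, Nfe2l2 the regulator of the oxidative stress response and Srsf6 a splicing factor. Hprt, a purine salvage gene, had a wide promoter peak that dropped out of 1 list: the peak of 1070 bp at 72 h (chrX:52987682-52988751) was in all 7 earlier lists, absent at 96 h and listed again at 120 h.

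The promoters on which the gene results turn are printed here as the 250 bases before the RefSeq start (GRCm38.p6, the build of mm10), 5′ to 3′ on the strand of the gene, with CG dinucleotides in capitals because CpG content differed between the classes of promoter. Ltf (chr9:111019042-111019291, plus strand), Cxcr2 (chr1:74153744-74153993, plus), Clec4d (chr6:123261857-123262106, plus) and Acod1 (chr14:103046762-103047011, plus) lay under promoter peaks new at 96 h. Jun (chr4:95052223-95052472, minus) lay under a promoter peak that was absent at 72 h but present in all 7 earlier lists. Lyz2 (chr10:117282273-117282522, minus), Il6 (chr5:30012864-30013113, plus) and Dusp1 (chr17:26508473-26508722, minus) lay under promoter peaks that closed.
Ltf: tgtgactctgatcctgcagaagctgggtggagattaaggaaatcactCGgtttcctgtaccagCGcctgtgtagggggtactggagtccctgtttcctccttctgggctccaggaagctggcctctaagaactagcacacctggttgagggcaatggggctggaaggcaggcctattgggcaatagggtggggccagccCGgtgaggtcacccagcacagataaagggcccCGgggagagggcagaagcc
Cxcr2: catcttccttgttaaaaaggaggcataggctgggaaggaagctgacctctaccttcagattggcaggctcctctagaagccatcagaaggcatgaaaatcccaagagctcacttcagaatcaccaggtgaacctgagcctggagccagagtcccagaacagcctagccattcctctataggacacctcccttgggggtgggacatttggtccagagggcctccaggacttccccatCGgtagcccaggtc
Clec4d: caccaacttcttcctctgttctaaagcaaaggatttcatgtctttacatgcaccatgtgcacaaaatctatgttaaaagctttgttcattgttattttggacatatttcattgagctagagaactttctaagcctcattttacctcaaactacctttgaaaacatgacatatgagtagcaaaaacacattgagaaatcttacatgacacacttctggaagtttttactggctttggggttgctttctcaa
Acod1: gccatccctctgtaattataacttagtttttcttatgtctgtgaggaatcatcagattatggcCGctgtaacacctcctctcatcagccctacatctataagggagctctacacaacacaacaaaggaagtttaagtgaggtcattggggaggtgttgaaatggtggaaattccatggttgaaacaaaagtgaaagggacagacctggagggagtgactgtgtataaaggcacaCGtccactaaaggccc
Jun: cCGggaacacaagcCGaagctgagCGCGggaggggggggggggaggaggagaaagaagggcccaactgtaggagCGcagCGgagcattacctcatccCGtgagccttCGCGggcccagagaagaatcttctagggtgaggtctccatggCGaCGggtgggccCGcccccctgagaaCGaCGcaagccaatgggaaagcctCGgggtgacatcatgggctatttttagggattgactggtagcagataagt
Lyz2: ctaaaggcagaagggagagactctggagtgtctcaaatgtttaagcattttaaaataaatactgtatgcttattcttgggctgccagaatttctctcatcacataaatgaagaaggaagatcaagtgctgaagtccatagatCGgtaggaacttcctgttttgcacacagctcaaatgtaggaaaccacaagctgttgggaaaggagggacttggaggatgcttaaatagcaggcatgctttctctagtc
Il6: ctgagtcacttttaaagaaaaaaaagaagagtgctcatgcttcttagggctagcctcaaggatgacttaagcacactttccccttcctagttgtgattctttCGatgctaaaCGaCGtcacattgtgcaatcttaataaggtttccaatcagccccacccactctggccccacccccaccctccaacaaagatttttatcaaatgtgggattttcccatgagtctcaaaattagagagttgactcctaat
Dusp1: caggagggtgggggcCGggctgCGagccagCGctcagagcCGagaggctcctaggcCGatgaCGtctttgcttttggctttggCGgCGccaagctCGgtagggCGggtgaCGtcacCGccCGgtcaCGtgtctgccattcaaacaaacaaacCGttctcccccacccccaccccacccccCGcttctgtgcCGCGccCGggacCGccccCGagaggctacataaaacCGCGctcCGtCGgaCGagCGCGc
The first 4 of these and those of Lyz2 and Il6 held 0 to 4 CG dinucleotides in 250 bases, with observed to expected CpG ratios of 0 to 0.277, while Jun held 15 (ratio 0.676) and Dusp1 28 (ratio 0.967).

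Across the RefSeq promoter table, of 32817 entries, the median CpG ratio was 0.373. It was 0.789 for 8240 promoters under peaks kept at 72, 96 and 120 h, 0.824 for 753 under new peaks and 0.542 for 599 under closed peaks. The closed promoters were mixed: those under 72 h peaks of 700 bp or wider had a median of 0.703 (236 promoters) and those under narrower peaks 0.445 (363 promoters). The 20 entries under promoter peaks that no earlier list held had a median of 0.147. Among genes whose promoter carried a 72 h peak, 7310 of 9311 had an entry in the table, as had 875 of 1152 with a closed and 587 of 744 with a new promoter peak.

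Motifs were searched on both strands of the same 250 bases. CCGGAAG, the core bound by ETS factors, was found in 6.90% of all promoters, 18.1% (interval 17.3 to 18.9) of the kept, 16.2% (13.7 to 19.0) of the new and 5.51% (3.95 to 7.64) of the closed ones. It was in 8.47% of closed promoters under 72 h peaks of 700 bp or wider and 3.58% of those under narrower peaks. CCGGAAG itself holds a CG, and the motif shares were not matched for the CpG ratio, which differed between these classes. TTGCNNAA, the core of sites for C/EBP factors, was found in 9.57% of all, 7.38% (6.83 to 7.96) of the kept, 6.51% (4.96 to 8.50) of the new and 9.68% (7.57 to 12.3) of the closed promoters. GAGGAAGT, a site like those of PU.1, was in 2.44% of all, 2.95% (2.61 to 3.34) of the kept, 1.33% (0.723 to 2.43) of the new and 3.34% (2.17 to 5.10) of the closed promoters. TGACTCA, the AP-1 site (TGAGTCA on the other strand), was in 4.46% of all and 2.66%, 1.86% and 3.67% of the kept, new and closed ones. The palindrome TTGCGCAA, which TTGCNNAA includes, was in 0.165% of all promoters, in 30 kept and 2 new ones and in 0 of the 599 closed ones, where the interval reaches 0.637%. Among the 8 printed promoters, Ltf held TTGGGCAA, a match to the C/EBP core, starting 75 bases before its start, and Il6 held TTGTGCAA at 128 and TGAGTCA at 249 bases.

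Counted by nearest gene, 16066 genes had a peak at 72 h. Of these, 9763 (60.8%) had fewer peaks at 96 h, 5633 as many and 670 (4.17%) more. At least 1 peak was kept by 13005 genes (80.9%), and every peak by 5711 (35.5%). No peak was left at 96 or 120 h for 2516 genes (15.7%), of which 1811 had had a single peak and 488 a promoter peak at 72 h. Of 3672 genes that had no peak at 72 h but had one in some other list, 388 (10.6%) had a peak at both 96 h and 120 h. A peak in an earlier list was present for 351 of these, and a promoter peak at 96 h for 308. In the lists cut to their 23620 widest peaks these counts were 1146 genes left with no peak and 1055 genes with one only later. Equal list lengths alone bring such counts close to each other. With promoter peaks alone, in the full lists, the counts were 952 and 798. Of 13814 genes with a peak at 96 h, 1757 (12.7%) had at least 1 new peak.

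Gene lists are compared with the share that 72 h peaks of the same widths and class (promoter or distal) would give at the rates of the whole list. The closed share was lower than at those rates in 17 of 20 lists, with the interval wholly below in 9 (both granule lists, neutrophil surface, NADPH oxidase, myeloid transcription factor, apoptosis, inflammation, macrophage and signalling genes), and higher in 3, with the interval wholly above in 0. A shortfall is therefore common to most of these lists and is not particular to any of them. Shares of new peaks, given below beside the 6.53% of all 96 h peaks, rest on few peaks. They were not matched for width or class and carry no interval.

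Primary granule genes are made early in the neutrophil line, and 4 of their best known members lost sites. Prtn3, which encodes proteinase 3, had 4 peaks in each of the 8 lists from 0 h to 72 h and none at 96 h or 120 h. Its sites lay upstream of the gene, in an intron of a noncoding transcript (chr10:79877213-79877552 and chr10:79877745-79878329) and in introns 2 and 4 (chr10:79880606-79881025 and chr10:79882078-79882303), and all 4 had been present in every earlier list. The single peak of Elane, neutrophil elastase, at 72 h closed (chr10:79883701-79884010, annotated to the end of Prtn3 and listed in 6 of the 7 earlier lists). Ctsg, cathepsin G, likewise had 4 in every list up to 72 h, a single one at 96 h and none at 120 h. Its promoter peak closed (chr14:56102380-56102750), as did both of its upstream peaks. Mpo, myeloperoxidase, had 5, 3 and 2 peaks at 72, 96 and 120 h and lost its promoter peak (chr11:87793376-87793836, present in all 7 earlier lists). Elane, Ctsg and Mpo, like Srgn, Ctsd, Mmp8, Lcn2, Mmp25, Camp, Retnlg, Chil3, Cd177, Cxcr2, Csf3r, Gfi1, Cebpa, Spi1, Jun, Nkx2-3, Kit, Myb, Myc, Cd34, Gbp3 and Ifit3 below, were chosen after their values were seen.

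The primary granule list as a whole did not share this pattern. Of its 20 genes with a peak in some list, 19 had one at 72 h. Their peaks numbered 84 at 72 h, 63 at 96 h and 44 at 120 h, and 26 of the 84 closed (31.0%, interval 22.1 to 41.5), against 44.2% at the rates of all peaks. Srgn, the granule proteoglycan serglycin, kept all 8 of its peaks and had 9 at 96 h, and Ctsd, cathepsin D, kept all 6. Ctsc, which activates the granule serine proteases, had 12, 11 and 7 peaks, with 4 closed. Cd63, a granule membrane protein, had 4, 2 and 1, and its promoter peak (chr10:128909438-128910456), present in all 7 earlier lists and missing at 72 h, was listed again at 96 h and 120 h.

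Secondary and tertiary granule genes went different ways. The 26 genes with a 72 h peak had 70 peaks at 72 h, 60 at 96 h and 49 at 120 h, 20 closed (28.6%, interval 19.3 to 40.1, against 44.4% at the rates of all peaks) and 7 of the 60 peaks at 96 h were new (11.7%, against 6.53% of all 96 h peaks). Ltf, lactoferrin, had 1 peak at 8 h and at 48 h, none in the other lists before 72 h, then 3, 3 and 4, but the 3 sites of 72 h and of 96 h were not the same. Of the 3 intronic peaks of 72 h, 2 closed and 1 was kept (chr9:111037385-111037912), while the peak over the promoter printed above (chr9:111018899-111019625), listed before only at 8 h, and a first-listed upstream site (chr9:111006331-111006901) came in at 96 h. Pglyrp1, a peptidoglycan-binding granule protein, kept all 3 peaks and gained an upstream site that no earlier list held (chr7:18874389-18875050). Anxa1, annexin A1, had 9, 8 and 6 peaks at 72, 96 and 120 h, with 7 kept, 2 closed and a first-listed peak 33404 bp from its TSS. Stfa1, a cysteine protease inhibitor, had 6, 4 and 4 peaks with 2 closed, and Ear2, a ribonuclease, had 3, 2 and 2 with 2 closed and 1 new. Mmp8, neutrophil collagenase, had 3, 1 and 1 with 2 closed, Lcn2, the iron-scavenging lipocalin, 2, 1 and 1, and Mmp25 lost its only peak. Camp, Retnlg, Chil3 and Cd177, a surface glycoprotein, closed none of their 1, 3, 2 and 2 peaks.

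Neutrophil surface and chemotaxis genes had 160, 135 and 110 peaks at 72, 96 and 120 h, with 43 closed (26.9%, interval 20.6 to 34.2, against 40.3% at the rates of all peaks) and 14 of 135 new (10.4%). Genes of the list with fewer peaks at 96 h numbered 16 (48.5%), with as many 10 and with more 7. Over all genes with a 72 h peak, 60.8% had fewer and 4.17% more, without matching for the number of peaks per gene. Promoter peaks were new at the receptors that bring neutrophils to a wound. C5ar1, the receptor for complement C5a, had 2, 3 and 3 peaks at 72, 96 and 120 h, and its promoter peak (chr7:16259109-16259649) was in no earlier list. Cxcr2, the receptor for CXC chemokines, had 4, 3 and 3 peaks, with a promoter peak (chr1:74153833-74154099) that no earlier list held, 2 kept and 2 closed. Csf3r, the receptor for G-CSF, had 4, 4 and 3, and its promoter peak (chr4:126024324-126025160), present in 3 of the 7 earlier lists, was new at 96 h. Clec4d, a C-type lectin, had 2 promoter peaks at 96 h, and the one that covers its start (chr6:123261952-123262216) was first listed then. Cxcr4, which holds neutrophils in the marrow, had 21, 17 and 12 peaks with 6 closed (6.65 at the rates of all peaks). Il1r2, a decoy receptor for interleukin 1, had 10, 5 and 5 with 6 closed (5.08 at those rates). Itgam, the alpha chain of the Mac-1 integrin, had 10, 7 and 7 and kept both promoter peaks.

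The 29 promoter peaks that appeared for the first time at 96 h and stayed at 120 h were 186 to 780 bp wide, and they were read after the values were seen. Besides C5ar1, Cxcr2 and Clec4d they lay at Acod1, which makes itaconate (chr14:103046806-103047051), Oasl1, an interferon-induced regulator (chr5:114922880-114923422), Slfn2, Il1f9 (interleukin 36 gamma), Tnfaip2, Tank, a modulator of NF-kappa B signalling, Stfa2, Fcrlb, Mcemp1 and Ptprj. The others lay at Pla1a, Sumo3, Agmo, Unkl, Znrf1, Myo1c, Pgf, a placental growth factor, Mir203, Gm5544, Slc39a4, a zinc transporter, Mir8094, Dpep2, F9, coagulation factor IX, Tcirg1, Grb2 and Spef2.

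Genes of the NADPH oxidase, the enzyme of the respiratory burst, and its helpers had 83, 57 and 46 peaks at 72, 96 and 120 h, with 24 closed (28.9% against 39.5% at the rates of all peaks). Ncf4, the p40 subunit, kept all 5 peaks and had a new one of 1337 bp in intron 7 (chr15:78257262-78258598), which all 7 earlier lists held. Vav1, an exchange factor that acts upstream of the oxidase, had 11, 5 and 5 peaks with 5 closed (5.97 at the rates of all peaks). Hvcn1, the proton channel that balances the charge of the oxidase, had 9, 5 and 2 with 4 closed (2.93 at those rates). Prdx6 had 4, 3 and 3 peaks, and its wide promoter peak (chr1:161250741-161252164) was absent at 72 h and new at 96 h.

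Myeloid transcription factor genes, the largest of the lists by peaks, had 353, 239 and 199, with 124 closed (35.1%, interval 30.3 to 40.2, against 41.6% at the rates of all peaks) and 23 of 239 new (9.62%). Fewer peaks at 96 h were found for 37 of 47 genes with a 72 h peak (78.7%, against 60.8% of all genes). The number of peaks per gene was not matched in this comparison. Irf8, which directs monocyte fate, had 12 peaks at 48 h, then 11, 5 and 1. It had 7 closed sites (5.85 at the rates of all peaks), of which 4 lay 61997 to 89842 bp downstream of the TSS. Its promoter peak (chr8:120735972-120736801) was listed at 96 h but not at 12, 72 or 120 h. Gfi1, a repressor needed for neutrophil formation, had 7, 3 and 2 peaks, and both of its 72 h promoter peaks closed (chr5:107725186-107725694 and chr5:107725757-107726522). A promoter peak in its first exon, held by all 7 earlier lists, was listed at 96 h and not at 72 or 120 h. An upstream site (chr5:107754756-107755156) was first listed at 96 h. Cebpa, the factor that starts granulocyte formation, had 7, 3 and 4, and both of its promoter peaks were absent at 96 h, with a promoter peak listed again at 120 h. Klf2 had 8 peaks at each of the 3 times, made of 6 kept, 2 closed and 2 new. Fosl2, an AP-1 subunit, kept all 8 of its peaks and gained a first-listed site 32299 bp from its TSS (chr5:32168421-32169122). Runx1 had 21, 15 and 13 peaks with 8 closed (8.02 at the rates of all peaks) and 3 new. Maf had 25, 18 and 16 with 9 closed (11.2 at those rates).

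Spi1 and Jun had promoter peaks that were missing at 72 h and listed before and after it. Spi1 encodes PU.1, the master regulator of the myeloid line. It had 4 peaks at 72 h, 1 at 96 h and 3 at 120 h. None of the 72 h peaks was kept, 2 of them were listed again at 120 h, and the only 96 h peak lay over the promoter (chr2:91096389-91097235), a site held by 5 of the 7 earlier lists. Jun, the AP-1 subunit whose promoter is printed above, had 17, 13 and 11 peaks with 12 kept, and the promoter peak new at 96 h (chr4:95051701-95052894, 1194 bp) was held by all 7. 

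**Figure D3:**
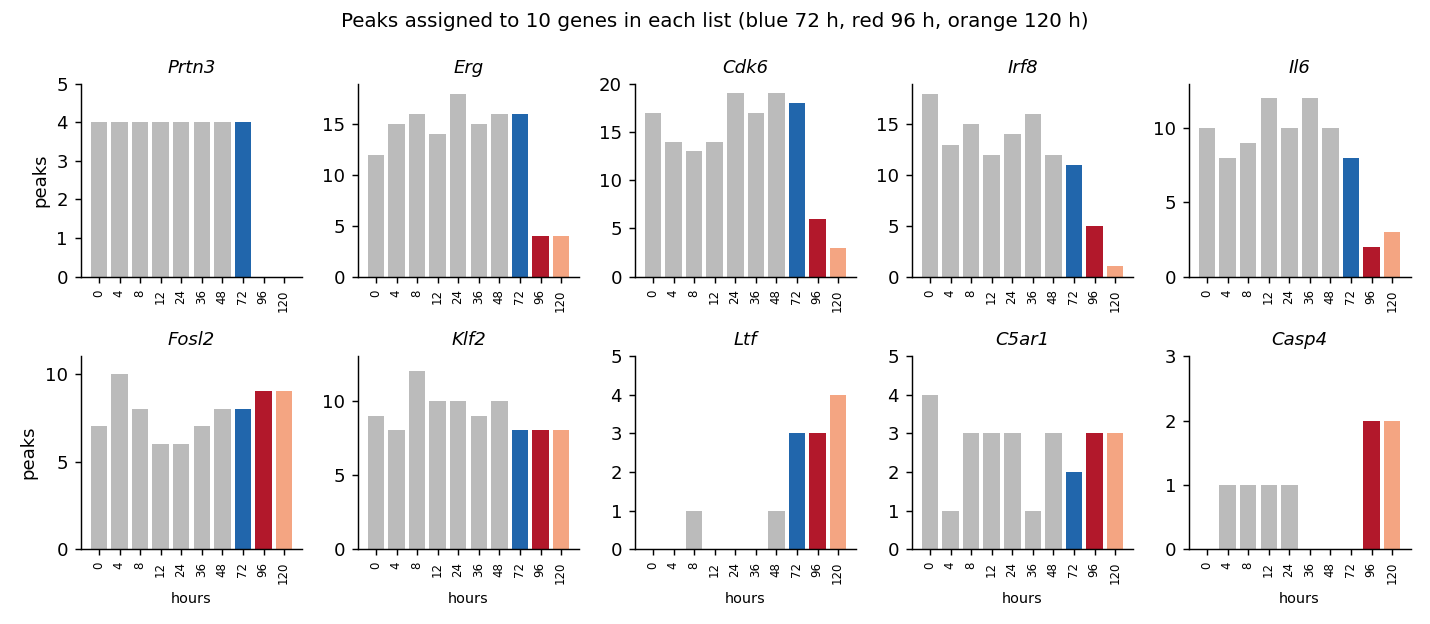
Number of peaks assigned to each of 10 genes (vertical axis) in each of the 10 lists (horizontal axis, hours after E2 withdrawal). Bars are single counts, 1 list a time, with 72 h in blue, 96 h in red and 120 h in orange. Prtn3 goes from 4 peaks to none, Erg from 16 to 4 and Cdk6 from 18 to 6, while Fosl2 and Klf2 hold 8 or 9 at these 3 times and Casp4 has 0 at 72 h and 2 at 96 h.

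Progenitor and stem cell genes were the blood list with the highest closed share. They had 196, 104 and 81 peaks at 72, 96 and 120 h, and 90 closed (45.9%, interval 39.1 to 52.9), against 40.6% at the rates of all peaks, which lies inside that interval. Of 31 genes with a 72 h peak, 26 had fewer at 96 h (83.9%, against 60.8% of all genes), 5 as many and none more. Here too the number of peaks per gene was not matched. Of the 104 peaks at 96 h, 4 were new (3.85%, against 6.53% of all 96 h peaks). Erg, an ETS factor of stem cells, stood out with 16 peaks at 72 h, 4 at 96 h and 4 at 120 h. Its 12 closed sites, against 7.02 at the rates of all peaks, lay mostly in introns 1 to 4 and included a promoter peak (chr16:95459045-95459227). Of these 12, 10 had been listed at 48 h and 4 in all 7 earlier lists, and a site at chr16:95612026-95612647 was first listed at 96 h. Fli1, its close relative, had 18, 10 and 8 peaks, and its 8 closed peaks were near the 8.23 that the rates of all peaks would give. Zfpm1, a partner of GATA factors, had 13, 5 and 3 with 8 closed (6.25 at the rates of all peaks). Nkx2-3 had 3 at 72 h and none at 96 h or 120 h. Kit, the receptor for SCF, had 8, 5 and 2, Myb 5, 2 and 1, and Myc 5, 2 and 1. Cd34, by contrast, kept all 3 of its peaks.

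Cell cycle and replication genes had 130, 88 and 73 peaks, with 46 closed (35.4% against 38.8% at the rates of all peaks), and 38 promoter peaks at 96 h against 39 at 72 h. Cdk6, the kinase that drives exit from G1, had 18, 6 and 3 peaks, with 12 closed (8.58 at the rates of all peaks) over chr5:3168576-3439877 and its promoter peak kept. Rrm2, a subunit of ribonucleotide reductase, had 8, 2 and 3 peaks with 6 closed (4.17 at the rates of all peaks). Of these closed sites, 4 had been in all 7 earlier lists. E2f2 kept all 9 of its peaks, and E2f3 4 of 7.

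Inflammation and NF-kappa B genes had 173, 132 and 117 peaks, with 53 closed (30.6% against 40.9% at the rates of all peaks) and 12 of 132 new (9.09%). Il6, an inflammatory cytokine, had 10 peaks at 48 h, then 8, 2 and 3, and its promoter peak (chr5:30012773-30013567), listed at every time up to 36 h and at 72 h, closed. Dusp1, a phosphatase that turns MAP kinases off, had 9, 5 and 5, and the peaks over its CpG-rich promoter both closed (chr17:26507971-26509026 and chr17:26509082-26509323), each present in all 7 earlier lists. Nfkbiz had 17, 10 and 9. Tnip1, which restrains NF-kappa B, had 5, 4 and 4 with 3 closed and 2 new.

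Interferon response genes had 81 peaks at 72 h, 72 at 96 h and 57 at 120 h, and their promoter peaks numbered 24, 31 and 25. Of the 72 peaks at 96 h, 9 were new (12.5%, against 6.53% of all 96 h peaks and 11.7% in the secondary granule list), and 24 of 81 closed (29.6% against 36.3% at the rates of all peaks). The new share rests on a small count not matched for class, and of all 9580 promoter peaks at 96 h 752 were new. Ddx58, the RNA sensor RIG-I, had 6, 3 and 2 peaks, with 4 closed inside or at the end of the gene and a new promoter peak (chr4:40239504-40239985) listed earlier only at 48 h. Oasl2 lost both of its 72 h peaks and had a new peak of 880 bp (chr5:114896998-114897877) that had been listed from 0 to 12 h. Gbp3 and Ifit3 had no peak at 72 h and a promoter peak at 96 h and 120 h.

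Apoptosis genes had 134, 96 and 77 peaks, with 40 closed (29.9% against 40.8% at the rates of all peaks). Casp4, a caspase that senses bacterial lipopolysaccharide in the cytosol, had none at 36, 48 and 72 h and 2 at 96 h and 120 h, at its promoter (chr9:5308514-5309121, listed from 4 to 24 h) and 3072 bp from the TSS (chr9:5311789-5312053, in no earlier list). Mcl1, the survival factor on which neutrophils depend, had 3, 5 and 4 peaks and kept all 3. Bcl2l11, which encodes the death factor Bim, had 16, 12 and 9 with 12 kept. Signalling, migration and actin genes had 263, 193 and 164 peaks, with 80 closed (30.4% against 40.3% at the rates of all peaks). Elmo1, a guide of the Rac exchange factor in phagocytosis, had 22, 11 and 10 with 13 closed (10.48 at the rates of all peaks).

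Macrophage and monocyte genes had 108, 87 and 65 peaks, with 29 closed (26.9% against 42.7% at the rates of all peaks). Ly86, a partner of the receptor RP105, had 25, 17 and 12, with 11 closed (11.49 at the rates of all peaks) and 3 new. Lymphoid genes had 50, 37 and 25 peaks with 18 closed (36.0% against 44.6%), mast, basophil and eosinophil genes 56, 43 and 33 with 20 closed (35.7% against 44.6%), and erythroid and megakaryocyte genes 51, 30 and 21 with 20 closed (39.2% against 40.0%), and the intervals of these 3 lists include the latter values. Eomes and Tcf7, T cell factors, had 3 and 4 peaks at 72 h and 0 and 1 at 96 h. Non-blood genes had 59 peaks at 72 h, 26 at 96 h and 14 at 120 h. The list had the highest closed share of the 20, at 35 of 59 (59.3%, interval 46.6 to 70.9, against 48.4% at the rates of all peaks, which that interval includes). None of its 26 peaks at 96 h was new, a small count beside the 6.53% of all 96 h peaks. Of its 22 genes with a 72 h peak, 9 had none at 96 h or 120 h, against 15.7% of all genes with a 72 h peak. That comparison was not matched for peaks per gene. Kdr, an endothelial receptor, had 10, 4 and 2 peaks and Pecam1 5, 1 and 0.

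Lists of general cell functions stayed near the rates of all peaks, with intervals that include them. Closed shares were 41.2% for nuclear shape genes (42.1% at those rates), 36.8% for chromatin and DNA methylation genes (37.3%), 31.4% for ribosomal protein genes (27.7%) and 32.9% for housekeeping genes (38.2%). Syne1 and Syne3, which tie the nucleus to the cytoskeleton, had 21 and 10 peaks at 72 h and 12 and 4 at 96 h, and Lmnb1, lamin B1, had 9, 6 and 4. Closed peaks of Syne1, Syne3 and Lmnb1 numbered 11, 6 and 5, against 10.74, 5.0 and 4.96 at the rates of all peaks. Hdac4 had 11, 13 and 8 with 3 new, and Bcor, a corepressor, had 16, 10 and 3 with 10 closed (5.8 at the rates of all peaks).

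**Figure D4:**
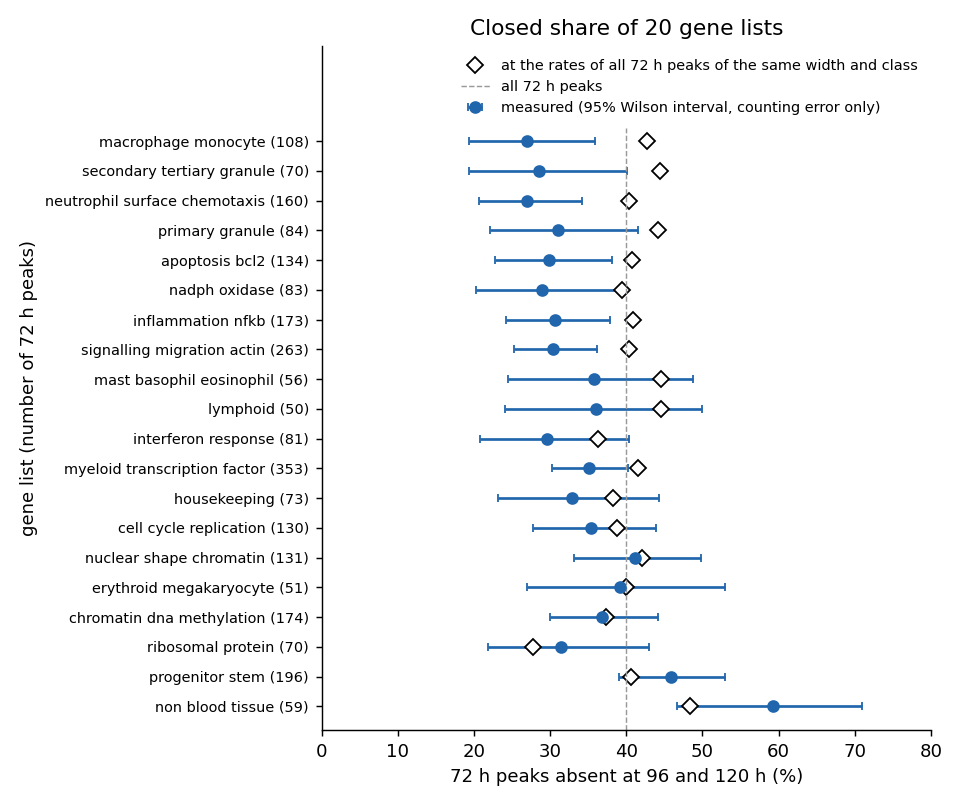
Share of 72 h peaks absent at 96 and 120 h (horizontal axis, percent) for 20 gene lists (vertical axis, with the number of 72 h peaks). Blue points are measured shares with 95% Wilson intervals that cover counting error only, and white diamonds are the shares that the rates of all 72 h peaks of the same width bin and class would give. The dashed line is the share of all 72 h peaks, 40.0%. Of the 20 lists 17 lie to the left of their diamonds, and the ribosomal, progenitor and non-blood lists lie to the right, with intervals that reach theirs.

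Over all genes, the most closed peaks were found at genes with many distal sites and at repeated loci. Pik3r1, the regulatory subunit of PI3 kinase, had 23, 7 and 6 peaks at 72, 96 and 120 h with 17 closed (10.74 at the rates of all peaks). Tns3, a focal adhesion protein, had 24, 8 and 10 with 16 closed (10.6 at those rates), and Foxp1, a forkhead repressor, 28, 11 and 10 with 15 closed (10.86). Fut8, the enzyme of core fucosylation, had 19, 4 and 4 with 15 closed (8.09 at those rates). Besides Gm26391 of the 5S array, the genes with the most peaks at 72 h, 6 or 7, and none later were Tdrd3, Slc10a4, Gm572, Cxxc5, Clk3, Col26a1, Ttc29, Habp2 and Taf4. New peaks were most numerous at Trps1, a GATA-type repressor, with 5 of 23 peaks at 96 h, followed by Chd7, Sgms1, Cited2 and the satellite label Mir101c, with 4 each. Mir101c, described with the satellite below, kept 25 of 25 peaks, and the next genes by peaks kept with none closed were Ly6e (10 of 10), E2f2, Fndc3b and Tagap (9 of 9 each), and Aacs, Fosl2 and Mboat1 (8 of 8 each). Hoxa9 was assigned no peak in any list. Lyz2, the gene of lysozyme, had 4 peaks at 72 h, 1 at 96 h and 2 at 120 h. Its promoter peak (chr10:117282222-117282468), present at all times from 0 h to 72 h, closed, and an upstream peak (chr10:117284882-117285513) was listed at all 10 times.

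Distal peaks on B2 elements and 5S repeats were mostly lost, those on satellite, LSU and simple repeats were kept above the rates for their width, and the largest families of LTR and L1 elements lay near those rates. The B2 family of short interspersed elements, which RNA polymerase III transcribes, held 2545, 1204, 205 and 86 distal peaks at 48, 72, 96 and 120 h, or 5.25%, 3.30%, 1.01% and 0.587% of the distal peaks. Of the 1204, 198 were kept (16.4%, interval 14.5 to 18.6), against 31.8% at the rates of distal peaks of the same width. B3, B3A and B2_Mm2, its subfamilies with the most peaks, were kept at 16.4%, 19.7% and 11.8%. B1 elements (the Alu family) were kept at 43.3% against 54.3%. The 5S ribosomal RNA repeats, another template of RNA polymerase III, had 24 to 33 distal peaks in every list from 0 h to 72 h, 2 at 96 h and none at 120 h, and 24 of the 25 at 72 h closed. Peaks on tRNA genes numbered 59, 44, 17 and 14 at 48, 72, 96 and 120 h, with 21 of 44 kept (47.7%, interval 33.8 to 62.1, against 39.6%).

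In contrast, peaks on the LSU ribosomal RNA repeats were kept in 56 of 56 cases and numbered 64 at 96 h, and peaks on the major satellite (GSAT_MM) in 27 of 27, with 34 at 96 h. Simple repeats were kept at 68.2% (interval 63.3 to 72.7) against 51.0%, low complexity sequence at 68.4% against 53.9%, and ERV1 elements at 57.8% against 49.5%. The ERVL-MaLR, L1, ERVK and ERVL families lay within 3 percentage points of the rates for their width. The sources used here do not say how reads that map to several places were treated, and its part in these values was not tested.

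**Figure D5:**
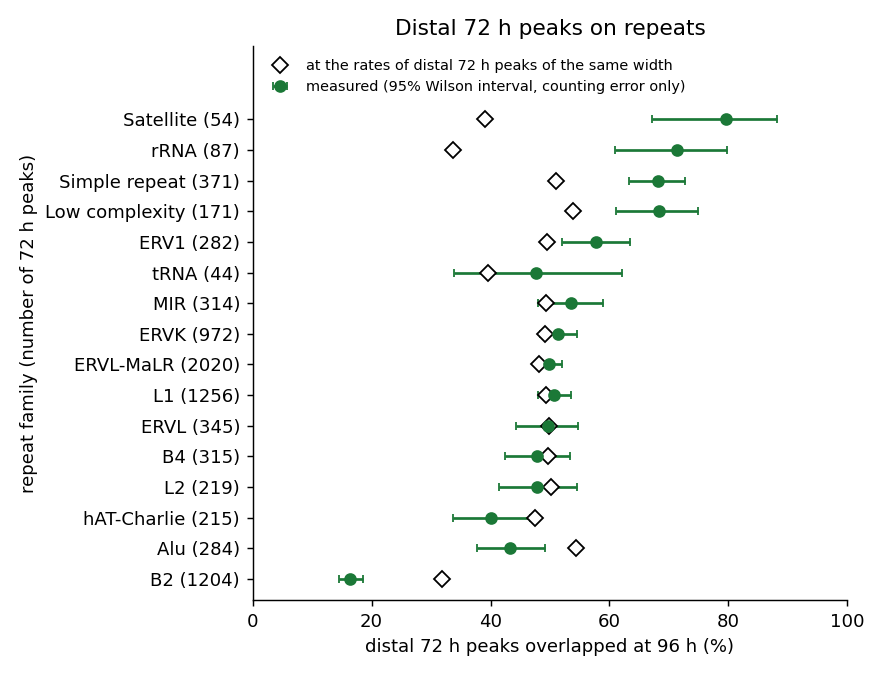
Share of distal 72 h peaks on each repeat family overlapped by a 96 h peak (horizontal axis, percent), with the number of 72 h peaks beside each family (vertical axis). Green points are measured shares with 95% Wilson intervals that cover counting error only, and white diamonds are the shares at the rates of distal peaks of the same width. B2 elements lie at 16.4% against 31.8%, and satellite, rRNA and simple repeats lie to the right of their diamonds.

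Repeated loci stood behind the largest single losses by gene label, and they were examined after those values were seen. The 5S array on chromosome 8 (chr8:123538784-123622046, 41 RefSeq 5S genes) had 40 to 45 peaks in the lists from 0 h to 48 h, 32 at 72 h and none at 96 h or 120 h. Gm26391, the label of 18 of them at 72 h, had none later. The V segments of the T cell receptor alpha locus (chr14:52427967-53977678, 130 RefSeq segments) had 72 to 87 peaks from 0 h to 48 h, then 42, 9 and 4. Of the 42, 9 were kept (21.4%, interval 11.7 to 35.9), against 45.7% at the rates for their width and class. The V segments of the immunoglobulin heavy chain locus (chr12:113572929-116009954, 183 segments) had 94, 53 and 35 peaks at 72, 96 and 120 h, and 48 were kept (51.1%, interval 41.1 to 60.9, against 48.9%). The kappa V segments had 8, 5 and 4. The 25 peaks labelled Mir101c, all kept, with 29 at 96 h, lay in a block of satellite on chromosome 9.

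Before width was considered, kept shares of distal peaks differed little with distance from the TSS. Distal peaks 1 to 10 kb from a TSS were kept at 49.3%, those at 10 to 50 kb at 48.5%, those at 50 to 200 kb at 48.3% and those farther out at 47.1%. The rates for their width and class would give 46.0%, 49.7%, 49.9% and 49.6%. The nearest peaks thus lay above their rate (interval 48.4 to 50.3) and the others below, and the interval of the farthest (44.4 to 49.8) includes its rate. Peaks on CpG islands were kept at 82.4% (interval 80.2 to 84.4), against 76.7% at the rates for their width and class. Across the autosomes and X the kept share was 53.8 to 61.1%, and on Y 21 of 28 peaks were kept. A distal peak whose nearest 72 h peak lay within 5 kb was kept at 57.6% (interval 56.6 to 58.6) when that neighbour was kept and at 45.8% (44.6 to 47.1) when it closed, where the rates for width and class would give 43.8% and 47.0%. At 5 to 25 kb the shares were 48.9% and 44.4% (53.0% and 52.4% at those rates), and beyond 25 kb they were 40.7% and 39.8% (48.1% and 48.3%). Distal peaks of genes whose promoter peak was kept were themselves kept at 50.4% (interval 49.6 to 51.2), those of genes whose promoter peak was not kept at 47.7% (45.8 to 49.7), and those of genes with no promoter peak at 72 h at 47.2% (46.5 to 48.0).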

How the data were processed

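ATAC-seq peaks of cultured mouse cells were taken from the 10 annotated peak lists that the authors deposited, 1 for each time and both of its samples. Per the file headers the lists come from HOMER annotatePeaks.pl with mm10, and the submitters' processing notes name BWA, MACS2 2.0, STAR 2.5 and mm9 with no role. The peak calling settings and whether samples were pooled are not given in the sources used here. The deposited score is 0 for every peak and was not used, and the deposited distance to TSS, nearest gene and repeat annotation were used as given.

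Peaks were matched by an overlap of at least 1 bp with Python 3.11.15, numpy and pandas. Shares carry 95% Wilson intervals (scipy). Rates for width and class are the shares of all 72 h peaks in the same of 6 width bins (200 bp steps from 100 bp, the last from 1100 bp) and class, averaged over the members. The overlap step was checked on 20000 simulated peaks. Of 638 symbols in 20 gene lists, 612 had a peak. The members and lists were chosen with earlier results of these data known.

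Genes were named by a rule: the members of each list with the most closed (up to 3) and most new peaks (up to 2), the 8 with the most of each over all genes, the widest closed and new sites, the genes emptied or fully kept with the most peaks, and Lyz2 and Hoxa9. Genes named beyond it were chosen after their values were seen. Promoter sequences came from RefSeq (GRCm38.p6). Alternatives were another overlap or gap, equal list lengths, a promoter window of 500 bp, width standardisation, genes by promoter or near peaks only, no sex chromosomes, and the 96 h list alone.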

Additional observations from a re-analysis of the deposited data

How the results depend on the processing

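No paired analysis was possible because each time has 1 peak list that serves both samples, and for the same reason no replicate could be left out. Shares at an overlap of 50% of the narrower peak or without chromosomes X and Y stayed inside the intervals of the reported shares, and the counts within 1.5 times. With peaks up to 200 bp apart counted as overlapping, 57.6% of all, 86.1% of promoter and 49.4% of distal 72 h peaks had a partner at 96 h. With lists cut to their widest peaks, 29806 each for shares and 23620 each for counts, 71.4% of 72 h peaks and 71.4% of 96 h peaks had a partner, 90.0% of promoter and 63.1% of distal 72 h peaks did, 5267 peaks of 72 h were absent later, 4622 of 96 h were new, 1146 genes lost all peaks and 1055 gained one. With a promoter window of 500 bp the promoter share was 88.8%, and standardised to common widths the promoter and distal shares were 69.7% and 53.0%. With promoter peaks only, 952 genes lost and 798 gained a peak. By the 96 h list alone 3491 peaks were without a 72 h partner.

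For the gene lists and repeats, 5 alternatives were added after the data were seen. The difference between the closed share and the share at the rates of all peaks kept its sign in 5 of 5 alternatives for 18 of the 20 gene lists and for B2 elements (15.3 to 16.9 points above) and simple repeats. The exceptions were the erythroid and megakaryocyte list (3 of 5) and the housekeeping list (4 of 5). The depth of the libraries is unknown, so no limit of detection can be given.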

Other observations

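Transient peaks, listed at 96 h and neither at 72 h nor at 120 h, were narrow, with a median width of 328 bp, and 520 of the 1545 were in no earlier list. Returned peaks, listed at 72 h and 120 h and not at 96 h, had a median width of 806 bp at promoters and 474.5 bp elsewhere, and 63.9% of them were present at 0 h.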
